A study of Mus musculus with 12 samples.

Results

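The genes described here encode the machinery of ISG15, a small ubiquitin-like protein that cells attach to other proteins after an interferon signal. They were chosen by symbol, and all 5 (Isg15, Uba7, Ube2l6, Herc6 and Usp18) were found once each among the 55401 gene identifiers of the deposited table and passed the filter on low values, which left 18274 genes for testing. CD45+ CD11c+ cells were sorted alive from B16-OVA tumours, a mouse melanoma line carrying ovalbumin, in mice of WT genotype (strain and age: not given in the sources used here). All tumours had grown for 10 days before treatment, and cells were taken on day 17. The combined group received 20 Gy plus the fusion protein (a first dose of 20 mcg, on day 10, and a second of 10 mcg, on day 14), the fusion protein group received the same doses without radiation, the 20 Gy group received radiation on day 10, and the untreated group received neither, with 3 libraries in each group. What the fusion protein consists of is likewise not stated. Nothing in the labels ties each library to its own mouse, and the p-values therefore reflect the spread between these libraries, which may be partly technical.

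ISG15 is joined to its targets by a chain of enzymes like that of ubiquitin. Uba7 is the activating enzyme (E1), Ube2l6 the conjugating enzyme (E2), and Herc6 the main ligase (E3) known in mouse cells, the role that HERC5 has in human cells. Usp18 is the protease that takes ISG15 off again, and apart from that activity it binds the interferon receptor chain IFNAR2 and dampens type I interferon signalling. Transcription of the whole set is known to be raised by the interferon-activated factor ISGF3, which binds repeats of GAAA in the interferon-stimulated response element.

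The promoter sequences are shown because the members moved together under treatment, while the 4 promoters found differed in their matches to this element. RefSeq promoters of the GRCm38.p6 build, from 250 bases before to 50 bases after the annotated start, were matched for 4 of the 5 genes, and Usp18 had no entry. Only this window was searched, so the absence of a match in it does not show that a gene lacks the element. A search on both strands for GAAA followed, after any 2 bases, by a second GAAA found 3 overlapping matches in the promoter of Isg15 (chr4:156200769-156201068, minus strand), from 78 bases before the start, and none in those of Uba7 (chr9:107975317-107975616, plus strand), Ube2l6 and Herc6. A looser form, AAANNGAAA, chosen after the sequences were seen, matched once in Uba7, on the opposite strand, from 27 bases before the start. Of 32851 promoters of the same length, 3.44% held the first motif and 10.6% the looser one, whose matches include every match of the first. Capitals mark the matches to the first motif in Isg15 and to the looser motif in Uba7.
Isg15 promoter: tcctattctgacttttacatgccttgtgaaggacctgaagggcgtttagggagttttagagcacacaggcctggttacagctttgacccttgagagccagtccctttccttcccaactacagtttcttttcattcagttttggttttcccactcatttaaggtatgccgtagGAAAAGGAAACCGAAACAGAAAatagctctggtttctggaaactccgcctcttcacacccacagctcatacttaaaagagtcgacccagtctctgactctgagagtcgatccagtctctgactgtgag
Uba7 promoter: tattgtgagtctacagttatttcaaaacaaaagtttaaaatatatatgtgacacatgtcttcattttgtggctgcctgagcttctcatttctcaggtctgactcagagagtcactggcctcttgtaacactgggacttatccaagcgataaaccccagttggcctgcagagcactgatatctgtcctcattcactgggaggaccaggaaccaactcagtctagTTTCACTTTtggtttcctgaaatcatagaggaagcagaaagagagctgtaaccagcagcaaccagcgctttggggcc

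Library depth was 14462032 to 23985496 reads in genes. Some libraries stood apart from their groups. Of 1754 chemoreceptor genes, whose usual place is sensory tissue, combined library 1 had a read in 57.7%, 20 Gy libraries 1 and 2 in 79.0% and 59.0%, and the other 9 libraries in 4.79% to 39.7%. Tyrp1, a melanocyte pigment enzyme, had 202.8 to 4718 normalized counts in the libraries numbered 3 and at most 38.5 in the others. The sort markers were high throughout, with 30925 to 53839 normalized counts of Ptprc (CD45) and 2226 to 9497 of Itgax (CD11c).

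The fusion protein raised the whole set. Averaged over both radiation arms, all 5 genes rose, against 2.07% of all genes tested that were called higher. The members' median log2 fold change was 2.04, beside -0.02 over all genes tested. Without 20 Gy libraries 1 and 2 and combined library 1, a choice made after seeing the data that leaves 1 library in the 20 Gy group, Usp18 alone passed in the average effect (limma adjusted p = 0.0016), with log2 fold changes of 2.83, 1.17, 1.49, 2.07 and 3.06 for Isg15, Uba7, Ube2l6, Herc6 and Usp18, and 87 of all genes were called, against 602 with all libraries. The modifier Isg15 and the protease Usp18 had the largest differences among the 5, about 14.0-fold and 11.1-fold on the fitted scale, and the activating enzyme Uba7 the smallest, 2.23-fold. With the fusion protein alone against untreated, 1 member passed the threshold and with the combined treatment against 20 Gy 3 passed, against 0.586% and 0.843% of all genes tested that were called higher (0.744% and 1.03% in either direction). For fusion protein against untreated, 3 passed without 20 Gy library 3 and 2 passed without untreated library 1 or fusion protein library 2. For combined against 20 Gy, 1 passed without 20 Gy library 1 or 2 or combined library 1 or 3. In these bulk samples, a different number of cells of a type and a different amount of RNA per cell cannot be told apart. A fold change is on the scale of log2 of the normalized count plus 1, ± after it is the standard error of the fit, and a gene is said to rise only at a limma adjusted p under 0.05.

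**Figure D1:**
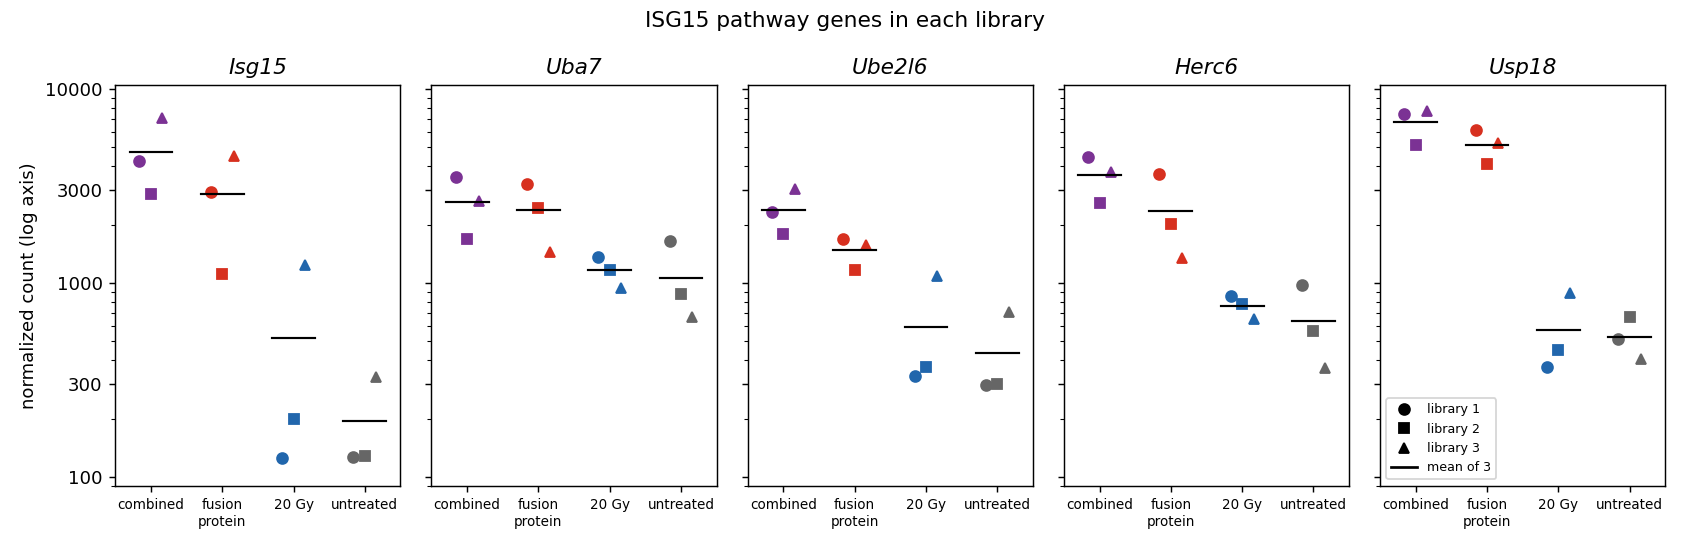
Normalized counts of the 5 genes on a log axis in each of the 12 libraries, by group; each point is a library, its shape is the library number and the line is the arithmetic mean of 3. For Isg15 the combined libraries sit between 2889 and 7060 and the fusion protein libraries between 1115 and 4531, and 20 Gy library 3, at 1245, lies apart from the other 20 Gy libraries.

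Isg15, the modifier itself (ENSMUSG00000035692.7, GRCm38 chromosome 4, 156199424 to 156200818, minus strand), had 2963, 1115 and 4531 normalized counts in fusion protein libraries 1, 2 and 3, against 126.6, 128.6 and 329.0 in untreated libraries. In combined libraries it had 4272, 2889 and 7060, against 125.0, 198.2 and 1245 in 20 Gy libraries. Neither pair of groups overlapped, although 20 Gy library 3 was above the lowest fusion protein library. The log2 fold change was 3.81 ± 0.79 for fusion protein against untreated (limma adjusted p = 0.0603) and 3.82 ± 0.79 for combined against 20 Gy (limma adjusted p = 0.0482). The wide error goes with the spread of Isg15 within groups, an SD of 1.14 on the log2 scale, the largest of the 5. When each library was left out in turn, the second call was kept 2 times of 12, with adjusted p from 0.00336 to 0.232, and was lost by the quasi-likelihood test of edgeR (log2 fold change 3.19, adjusted p = 0.156). Its log2 fold change ran from 3.15 without 20 Gy library 1 to 4.81 without 20 Gy library 3. Averaged over both arms the log2 fold change was 3.81 ± 0.56 (limma adjusted p = 0.0029), and this call was kept all 12 times.

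Uba7, the enzyme that activates ISG15 (ENSMUSG00000032596.14, chromosome 9, 107975505 to 107984060, plus strand), had 3241, 2443 and 1446 normalized counts in fusion protein libraries 1, 2 and 3, against 1637, 874.9 and 669.3 in untreated libraries. These groups overlapped, since fusion protein library 3 was below untreated library 1. Combined libraries had 3528, 1676 and 2633, against 1365, 1170 and 947.5 in 20 Gy libraries, with no overlap. The log2 fold changes were 1.19 ± 0.39 for fusion protein against untreated and 1.12 ± 0.39 for combined against 20 Gy (limma adjusted p = 0.320 and 0.333). Averaged over both arms the value was 1.16 ± 0.27 (limma adjusted p = 0.0434), the weakest call of the 5, kept 3 times of 12 when each library was left out in turn (adjusted p from 0.0187 to 0.116) and lost in edgeR (adjusted p = 0.0535).

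Ube2l6, the conjugating enzyme (ENSMUSG00000027078.14, chromosome 2, 84798828 to 84810335, plus strand), had 1687, 1162 and 1577 normalized counts in fusion protein libraries, against 298.0, 300.8 and 711.7 in untreated libraries. It had 2321, 1781 and 3053 in combined libraries, against 332.6, 369.7 and 1081 in 20 Gy libraries. As for Isg15, library 3 was the highest of the untreated and of the 20 Gy groups, and neither pair of groups overlapped. The log2 fold changes were 1.86 ± 0.46 for fusion protein against untreated and 2.19 ± 0.46 for combined against 20 Gy (limma adjusted p = 0.119 and 0.0501). The second value lay at the threshold, and Ube2l6 was called there with TMM scaling (adjusted p = 0.0443), with DESeq2 (0.0033), with a pseudocount of 10 (0.0437) and with no filter (0.0346), and not by edgeR (0.0994). Averaged over both arms Ube2l6 rose by 2.03 ± 0.32 on the log2 scale (limma adjusted p = 0.00518).

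Herc6, the ligase (ENSMUSG00000029798.11, chromosome 6, 57581000 to 57664632, plus strand), had 3651, 2017 and 1347 normalized counts in fusion protein libraries 1, 2 and 3, against 976.5, 567.9 and 363.1 in untreated libraries. It had 4475, 2594 and 3731 in combined libraries, against 856.2, 775.8 and 649.1 in 20 Gy libraries. In the fusion protein, untreated and 20 Gy groups library 1 was the highest and library 3 the lowest. Among combined libraries, library 1 was the highest and library 2 the lowest. Neither pair of groups overlapped. The log2 fold change was 1.87 ± 0.40 for fusion protein against untreated (limma adjusted p = 0.0685). For combined against 20 Gy it was 2.22 ± 0.40 (limma adjusted p = 0.0238), a call kept 7 times of 12 when each library was left out (adjusted p from 0.013 to 0.129) and lost without the libraries numbered 3 (adjusted p = 0.0714). Averaged over both arms Herc6 rose by 2.04 ± 0.28 (limma adjusted p = 0.00206).

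Usp18, the ISG15 protease (ENSMUSG00000030107.10, chromosome 6, 121245906 to 121270917, plus strand), had 6146, 4106 and 5270 normalized counts in fusion protein libraries, against 511.5, 666.5 and 403.5 in untreated libraries. It had 7401, 5151 and 7712 in combined libraries, against 366.9, 451.1 and 890.0 in 20 Gy libraries. Its within-group SD, 0.44 on the log2 scale, was the smallest of the 5, and the lowest library with fusion protein lay well above the highest without. Usp18 rose by 3.30 ± 0.32 with fusion protein against untreated (limma adjusted p = 0.00108) and by 3.65 ± 0.32 with the combined treatment against 20 Gy (limma adjusted p = 0.00046), on the log2 scale. It ranked 8th and 6th by p among all genes tested in these comparisons. Both calls were kept each of the 12 times that a library was left out. Without 20 Gy libraries 1 and 2 and combined library 1, 0 members and 0 of all genes passed for combined against 20 Gy by limma (adjusted p = 0.167 for Usp18, with a log2 fold change of 2.82).

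Libraries with the same replicate number deviated together for fusion protein against untreated (correlations of 0.473 to 0.621 over genes) and for combined against untreated (0.334 to 0.389). With that number as a block, all 5 members rose with the fusion protein against untreated, with limma adjusted p of 0.00034 for Isg15, 0.0147 for Uba7, 0.00235 for Ube2l6 and 0.00119 for Herc6, while the number of all genes called went to 602, against 136 without the block. The combined treatment against untreated raised 4 members, against 1.21% of all genes tested that were called higher (1.4% in either direction). In that comparison the log2 fold changes were 4.66 ± 0.79 for Isg15, 2.54 ± 0.46 for Ube2l6, 2.58 ± 0.40 for Herc6 and 3.69 ± 0.32 for Usp18 (limma adjusted p 0.014, 0.0195, 0.00805 and 0.000329). Uba7 had 1.34 ± 0.39 (limma adjusted p = 0.1505, and 0.00483 with the block). Without combined library 1 or combined library 3, 1 member passed in this comparison, and without untreated library 2, or without 20 Gy libraries 1 and 2 and combined library 1, 2 passed. This comparison shares its untreated libraries with the one of fusion protein alone.

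**Figure D2:**
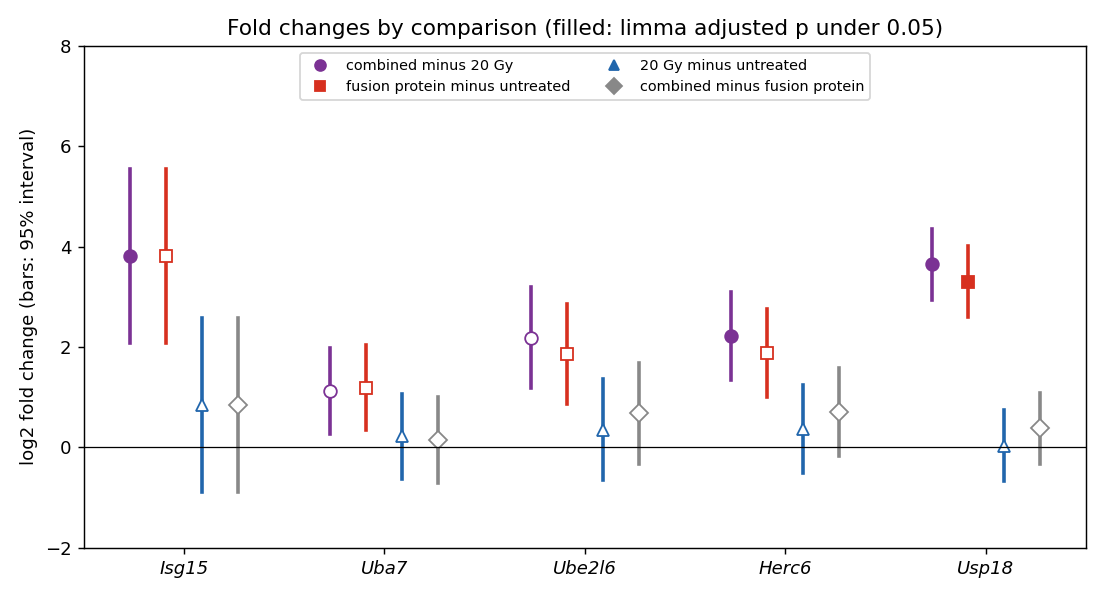
Log2 fold changes of the 5 genes in 4 comparisons with their 95% intervals; filled symbols passed a limma adjusted p of 0.05. The differences made by the fusion protein run from 1.12 to 3.82, and those made by radiation from 0.03 to 0.85 with every interval crossing 0.

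Radiation changed no member past the threshold. The 20 Gy groups have been listed above, and set against untreated the log2 fold changes were 0.84 (95% interval -0.89 to 2.57) for Isg15, 0.22 (-0.63 to 1.07) for Uba7, 0.35 (-0.65 to 1.35) for Ube2l6, 0.37 (-0.51 to 1.24) for Herc6 and 0.03 (-0.68 to 0.74) for Usp18. The limma adjusted p lay between 0.844 and 0.991. Without 20 Gy library 3 the value was -0.15 for Isg15 and -0.19 for Ube2l6. Without all 4 libraries numbered 3, which also leaves out the highest untreated library of both genes, it was 0.30 for Isg15 and 0.23 for Ube2l6. For combined against fusion protein the values were 0.85 (-0.89 to 2.58) for Isg15, 0.15 (-0.70 to 1.00) for Uba7, 0.68 (-0.33 to 1.68) for Ube2l6, 0.71 (-0.17 to 1.59) for Herc6 and 0.38 (-0.33 to 1.09) for Usp18, with a limma adjusted p of 1.00 for each. The point estimates of all 5 were above 0 in both comparisons, and both share groups with the comparisons of the fusion protein. Over all genes limma called 0 in either comparison (0% of genes tested), with 1231 and 534 at an unadjusted p under 0.05. The test of edgeR called 0 in both, DESeq2 called 45 and 0, and the blocked limma fit called 70 and 0.

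Whether the fusion protein acted differently in irradiated tumours was tested by the interaction. The difference between the effect in irradiated and in unirradiated tumours was 0.01 (95% interval -2.45 to 2.46) on the log2 scale for Isg15, -0.07 (-1.27 to 1.13) for Uba7, 0.32 (-1.09 to 1.74) for Ube2l6, 0.34 (-0.90 to 1.59) for Herc6 and 0.35 (-0.66 to 1.35) for Usp18. No member passed (limma adjusted p = 1.00 for each), nor did any of all genes tested (0%), with 188 at an unadjusted p under 0.05, 0 called by edgeR and 1 by DESeq2. The interval for Usp18 was the narrowest, and differences of up to 1.35 log2 units lie within it.

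Levels between genes were compared as normalized counts per kilobase of exon in the GENCODE vM21 annotation. The length was that of all annotated exons of a gene merged, which can exceed that of any single transcript. It was 756 bases for Isg15, 6692 for Uba7, 1996 for Ube2l6, 9292 for Herc6 and 2790 for Usp18. The order between genes depends on this choice of length. In combined libraries Isg15 had 3821 to 9339, Usp18 1846 to 2764, Ube2l6 892.1 to 1530, Uba7 250.5 to 527.1 and Herc6 279.1 to 481.6. The ranges of the first 3 did not overlap one another or those of the other 2, while Uba7 and Herc6 could not be ordered. In untreated libraries the ranges were 167.4 to 435.2 for Isg15, 149.3 to 356.6 for Ube2l6, 144.6 to 238.9 for Usp18, 100.0 to 244.6 for Uba7 and 39.1 to 105.1 for Herc6. There each gene's range overlapped that of its neighbour in the order. In fusion protein libraries Isg15 had 1475 to 5993 and Usp18 1472 to 2203, which overlapped, and both lay above Ube2l6 (582.1 to 845.2). In 20 Gy libraries the ranges of Isg15 (165.3 to 1646), Ube2l6 (166.7 to 541.6), Usp18 (131.5 to 319.0) and Uba7 (141.6 to 204.0) overlapped, and Herc6 (69.9 to 92.1) was below all 4.

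**Figure D3:**
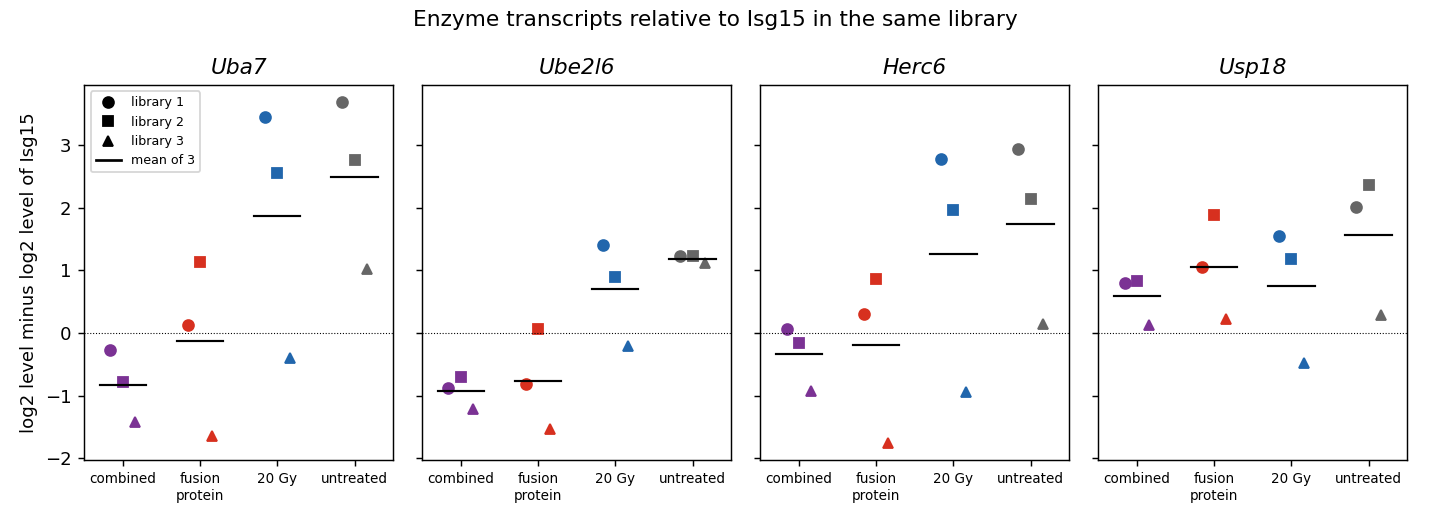
Log2 level of each enzyme transcript minus the log2 level of Isg15 in the same library, by group; points are libraries, shapes are library numbers, lines are means of 3, and the values are not per length. Ube2l6 lies between -1.52 and 0.06 in libraries with fusion protein and between -0.20 and 1.41 in those without.

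The transcripts did not rise in equal measure. Within a library, the log2 level of Uba7 relative to Isg15 averaged -0.83 ± 0.57 in combined and 1.87 ± 2.01 in 20 Gy libraries, and -0.13 ± 1.41 in fusion protein and 2.49 ± 1.35 in untreated libraries (SD, n = 3). The difference with and without fusion protein, averaged over both arms, was -2.66 for Uba7 (exact two-sided permutation within radiation arms over 400 arrangements, p = 0.02, adjusted over 4 genes 0.04). It was -1.79 for Ube2l6 (exact permutation p = 0.005, the smallest these arrangements can give, adjusted 0.02). For Ube2l6 the difference was kept in all 12 repeats without 1 library, and for Uba7 in 5, with adjusted p from 0.02 to 0.07. For Herc6 the difference from Isg15 was -1.77 (exact permutation p = 0.06, adjusted 0.08). The protease Usp18 differed least from Isg15, by -0.33 (exact permutation p = 0.5, adjusted 0.5), with -0.65 to -0.13 when 1 library was left out. With labels exchanged only between libraries of the same number in the same arm, the difference was negative in 6 of 6 pairs for both Uba7 and Ube2l6, which gives the smallest p of that exact permutation test over 64 arrangements, 0.0312 (adjusted 0.0625), so that 0 of the 4 genes passed. For Herc6 and Usp18 the difference was negative in 5 of 6 pairs. Without the libraries numbered 3, chosen after seeing the data, 0 passed as well. All 4 genes then had an adjusted p of 0.0556 (exact permutation), the smallest that so few libraries can give. Within each arm, every library with fusion protein then lay below every one without, for Usp18 as for the other genes.

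**Figure D4:**
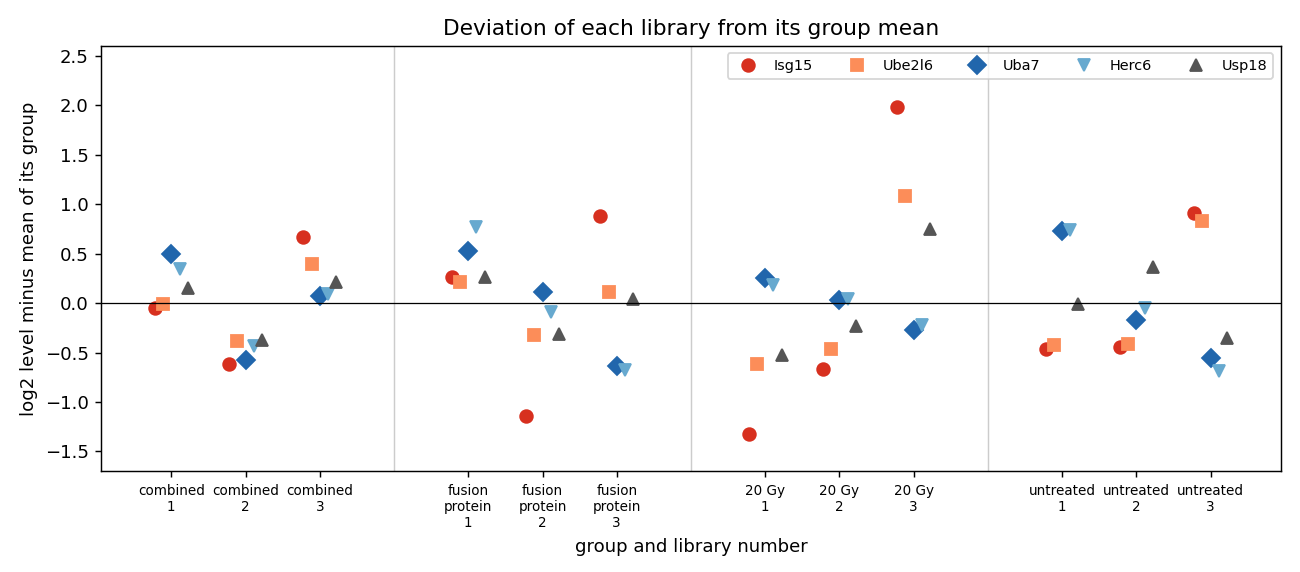
Log2 level of each gene in each library minus the mean of its group, for the 12 libraries; symbols are the 5 genes. In 20 Gy library 3 and untreated library 3, Isg15 stands at 1.98 and 0.91 and Ube2l6 at 1.08 and 0.83, while Uba7 and Herc6 lie below 0.

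Within groups the 5 genes split into pairs. Isg15 and Ube2l6 lay on the same side of their group mean in 12 of 12 libraries, and Uba7 and Herc6 in 11 of 12, while Isg15 and Uba7 did so in 4 of 12. Usp18 was on the side of Isg15 in 9 of 12. Deviations within a group balance one another, so the 12 libraries are not independent here. Pairs of other genes were not counted, and these counts are a description. In 20 Gy library 3 Isg15 was 1.98 and Ube2l6 1.08 above the mean of the group on the log2 scale, and Uba7 was -0.28 and Herc6 -0.22 from it. In untreated library 3 the deviations were 0.91, 0.83, -0.56 and -0.69 in the same order of genes. Markers of other cells moved with these libraries. The summed level of 4 melanoma markers (Tyrp1, Dct, Mlana, Pmel) was 769.9 in combined library 3, against 29.7 and 186.4 in combined libraries 1 and 2. It was 3584, 13449 and 1502 in the libraries numbered 3 of the fusion protein, 20 Gy and untreated groups, against 7.49 to 44.9 in the other 6 libraries of those groups. In 20 Gy library 3, mature dendritic cell markers summed to 17128, against 949 and 1912 in 20 Gy libraries 1 and 2, fibroblast markers to 2103, against 39.6 and 37.5, and mitochondrial genes took 18.6% of reads, against 11.8% and 11.6%. T cell markers were lowest in library 1 of every group, at 3259, 5161, 2593 and 3425 in combined, fusion protein, 20 Gy and untreated libraries, and Uba7 and Herc6 were highest in library 1 of every group. The sort markers Ptprc and Itgax also summed highest there, at 52853, 61159, 52136 and 57289 in the same order. As deviations from group means, Uba7 and Herc6 had Pearson correlations of 0.84 and 0.79 with summed markers of the cDC1 dendritic subset. With those of the cDC2 subset they had 0.87 and 0.82, and with T cell markers -0.87 and -0.82. With the sort markers they had 0.80 and 0.80, and with neutrophil markers 0.68 and 0.71. With mature dendritic cell markers they had -0.66 and -0.65, and with melanoma markers -0.72 and -0.70. Sirpa made up most of the cDC2 sum. Single markers differed from the sums: Itgae (cDC1) was lowest in library 1 of all but the combined group. Clec10a (cDC2) was lowest in library 1 of the untreated and 20 Gy groups and highest there in the others. The part of all these markers in the values of the 5 genes was not tested. Without the 4 libraries numbered 3, the log2 fold changes for fusion protein against untreated were 3.82, 1.23, 2.22, 1.86 and 3.10 in the order Isg15, Uba7, Ube2l6, Herc6 and Usp18, and 3 passed by limma (Isg15, Ube2l6 and Usp18).

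Cell type markers also differed with the fusion protein itself. Monocyte markers (4 of 4 found) summed to 18444 to 30040 in combined libraries, against 8550 to 9859 in 20 Gy libraries, and to 11363 to 25856 in fusion protein libraries, against 5664 to 9504 in untreated libraries. Of these 4, 1 passed. Ly6c2, a surface antigen of inflammatory monocytes, rose in combined against 20 Gy by 3.53 ± 0.55 on the log2 scale (limma adjusted p = 0.00931), and Ly6c2 had 2.33 ± 0.55 for fusion protein against untreated (limma adjusted p = 0.105). For combined against 20 Gy, Plac8 had 1.33 ± 0.40, Ccr2 0.21 ± 0.24 and Chil3 -0.62 ± 0.75 (limma adjusted p 0.218, 0.921 and 0.931), so the summed difference came mainly from Ly6c2 and Plac8. Conventional dendritic cell markers (Flt3, Zbtb46, H2-Ab1) summed to 19085 to 24697 in combined libraries, against 45387 to 56919 in 20 Gy libraries, and to 8540 to 22213 in fusion protein libraries, against 25367 to 51246 in untreated libraries. H2-Ab1 made up most of each of these sums. For combined against 20 Gy the log2 fold changes were -1.56 ± 0.44 for Flt3, -1.04 ± 0.32 for Zbtb46 and -1.14 ± 0.36 for H2-Ab1. None of these 3 genes passed in either comparison. Of 4 markers of the cDC1 subset, Cadm1, an adhesion molecule, fell by 2.36 on the log2 scale in combined against 20 Gy (limma adjusted p = 0.00495), and 0 passed for fusion protein against untreated. Of 3 markers of the cDC2 subset, Cd209a, a lectin receptor, fell by 4.99 on the log2 scale in combined against 20 Gy and fell by 4.57 with fusion protein against untreated (limma adjusted p 0.000355 and 0.000653). Cd209a had 44.9, 23.6 and 37.1 normalized counts in combined libraries, against 1203, 1099 and 1041 in 20 Gy libraries, and 58.2, 44.6 and 16.5 in fusion protein libraries, against 1035, 711.4 and 861.7 in untreated libraries. The summed plasmacytoid dendritic cell markers were 3084 to 5691 in fusion protein libraries, against 6293 to 14886 in untreated libraries, and overlapped between combined (5763 to 7634) and 20 Gy libraries (5745 to 10117). The part of these cell types in the rise of the ISG15 genes was not tested.

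None of the relatives of these enzymes in the ubiquitin pathway passed the threshold. Of 29 genes of ubiquitin and ubiquitin-like machinery, 0 rose and 0 fell in the average effect of the fusion protein, where 3.29% of all genes tested were called by limma in either direction. Their log2 fold changes ran from -0.37 to 0.50 with a median of 0.12. Uba1, the main activating enzyme of ubiquitin, had 0.19 ± 0.20, and Ube2l3, the E2 most like Ube2l6, had 0.33 ± 0.19 (limma adjusted p 0.768 and 0.484). Sumo3, a modifier of the SUMO family, had 0.33 ± 0.10, and Ube2f, an E2 of NEDD8, had -0.37 ± 0.13 (limma adjusted p 0.0981 and 0.184). The small HERC ligases Herc3 and Herc4 had 0.50 ± 0.18 and -0.18 ± 0.26 (limma adjusted p 0.193 and 0.849). Ubd, which encodes the ubiquitin-like modifier FAT10, had 86 reads over all 12 libraries and a log2 fold change of 0.02 ± 1.05 (limma adjusted p = 0.997), too few to show a difference.

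**Figure D5:**
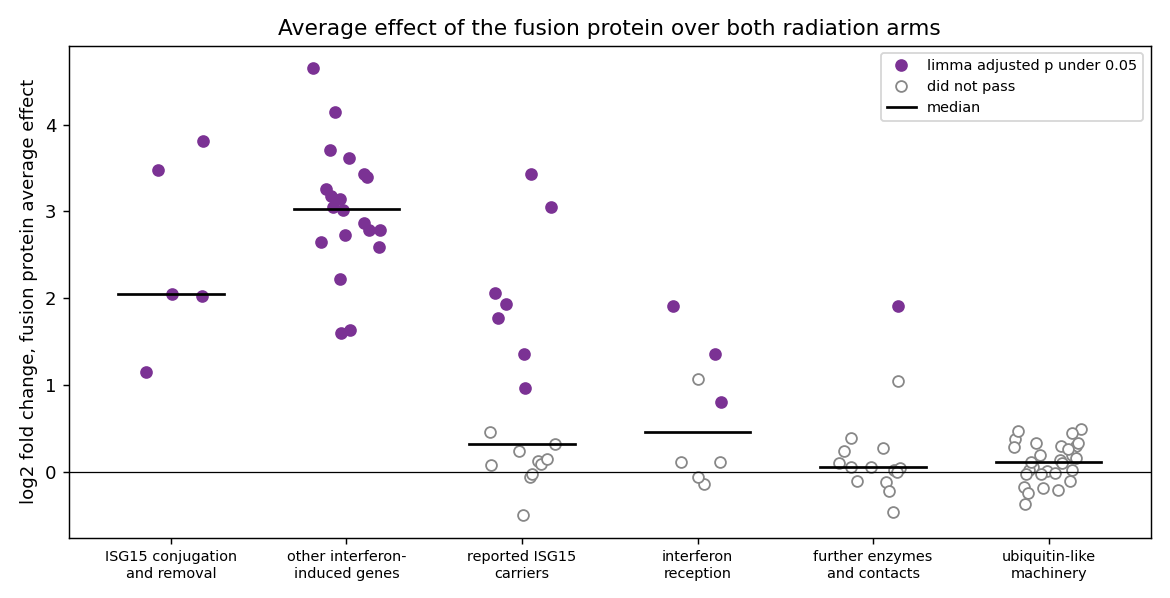
Log2 fold changes for the average effect of the fusion protein over both radiation arms, by gene list; filled points passed a limma adjusted p of 0.05, open points did not, and lines are medians. The 5 ISG15 genes run from 1.16 to 3.81 and the 29 genes of ubiquitin-like machinery from -0.37 to 0.50.

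Of 16 further enzymes and contacts of ISG15, 15 were tested, with a median log2 fold change of 0.05. In the average effect 1 rose, against 2.07% of all genes tested that were called higher. This was Stat2, by 1.91 ± 0.27 on the log2 scale (limma adjusted p = 0.00234). Stat2 is a subunit of ISGF3 and recruits Usp18 to the interferon receptor. Trim25, a ubiquitin ligase reported to act also as an ISG15 ligase, had 1.05 ± 0.30 (limma adjusted p = 0.0977). Hdac6, a deacetylase reported to bind ISG15, had -0.46 ± 0.20, and Usp21, a deubiquitinase reported to act on ISG15 as well, had 0.28 ± 0.23 (limma adjusted p 0.308 and 0.683). Against 2.07% of all genes tested that were called higher, 7 of 17 genes whose proteins are reported to carry ISG15 rose. Among them were Ddx58, which encodes the RNA sensor RIG-I (1.93 ± 0.14), Eif2ak2, the kinase PKR (1.77 ± 0.18), Mx1 (3.05 ± 0.35), Ifit1 (3.43 ± 0.41), Ifih1, the sensor MDA5 (2.06 ± 0.27), and Cgas (0.97 ± 0.23), with limma adjusted p from 3.42e-05 to 0.0473. The other 10 did not pass, and the median over all 17 was 0.32. Mx1 and Ifit1 also belong to the interferon-induced list below.

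Of 8 genes of type I interferon reception, 3 rose in the average effect of the fusion protein. Over all genes tested, 2.07% were called higher there. The 3 included Stat2 and Irf9 (0.80 ± 0.11, limma adjusted p = 0.00218). The receptor chains Ifnar1 and Ifnar2 had -0.15 ± 0.14 and 0.12 ± 0.15 (limma adjusted p 0.733 and 0.823). Socs1, a feedback inhibitor of this signalling as Usp18 is, had 1.07 ± 0.66 (limma adjusted p = 0.539). All 20 of the other interferon-induced genes listed rose, by a median of 3.03, with Oas3 at 3.26 ± 0.20, Ifit3 at 4.15 ± 0.26, Ifi44 at 4.65 ± 0.32 and Cmpk2 at 2.79 ± 0.20 (limma adjusted p 9.96e-06, 1.26e-05, 2.17e-05 and 2.75e-05). These lists were drawn up with earlier results of the data known, so the counts are a description. Isg15 and Usp18 lay above the median of that list, and Uba7 below its lowest member, 1.60.

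Transcripts of interferons other than Ifng were scarce. Of 21 interferon genes, Ifng alone passed the filter on low values. Ifng had 634.7, 817.9 and 1391 normalized counts in combined libraries, against 215.6, 247.5 and 878.2 in 20 Gy libraries (log2 fold change 1.31 ± 0.77, limma adjusted p = 0.725). It had 1190, 633.1 and 2213 in fusion protein libraries, against 365.4, 466.8 and 2681 in untreated libraries, and the groups overlapped. Ifnb1, which encodes interferon beta, had 83 reads over all 12 libraries, 70 of them in 20 Gy library 3, the 20 Gy library with the highest Isg15. Ifng was highest in library 3 of every group, and so was Isg15. The part of Ifnb1 or Ifng in these Isg15 levels was not tested.

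Genes of similar pattern were sought by Pearson correlation over the 12 libraries with the mean centred log2 level of the 5 members. The candidates were 10659 genes tested with a mean normalized count of at least 50, without the members and genes of Gm or Rik symbols. The 8 most alike were Ifi35 (r = 0.995), Rtp4 (0.994), Ifit2 (0.994), Parp9 (0.990), Irf7 (0.989), Naa20 (0.989), Cmpk2 (0.989) and Ifi44 (0.989). The correlations describe libraries that share the treatment groups and are not tested. Of the 8, Parp9, an interferon-induced member of the ADP-ribosyltransferase family, and Naa20, the catalytic subunit of an N-terminal acetyltransferase, are outside the interferon-induced list. Their log2 fold changes were 1.73 and 1.02 for combined against 20 Gy, and 1.62 and 1.02 for fusion protein against untreated.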

How the data were processed

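Per the submitters' processing notes, FastQC, Trimmomatic, STAR, featureCounts and DESeq2 were used with the mm10 build; versions, settings and any use of strand in counting were not stated. The deposited signal values are read counts that the authors divided by a DESeq2 size factor for each library. Divided by the value of 1 read, 100% of them came out whole within 0.001. Symbols came from GENCODE vM21 (99.53% of identifiers matched).

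Testing took genes reaching a normalized count of 10 in 3 or more libraries. Log2 of the normalized count plus 1 was fitted with limma 3.58.1 (R 4.3.3) over all 12 libraries in 4 groups, with a variance trend, 8 residual degrees of freedom and two-sided tests, with Benjamini-Hochberg adjustment over 18274 genes. The script was tested on simulated data. The 5 members and all lists were chosen with earlier results of these data known. Of each list, the genes of smallest p in the average effect were named, up to 4, with Uba1, Ube2l3, Herc3, Herc4 and Ubd always; Ifit1, Ifih1, Cgas, Ifnar1, Ifnar2, Ifnb1 and the cell type markers were named after their values were seen. Some genes of the lists are not reported here.

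Alternatives were edgeR 4.0.16 and DESeq2 1.42.0 on recovered reads, TMM scaling, pseudocounts of 0.5 and 10, no filter, a fit of the compared groups alone, the replicate number as a block, and each library left out. The labels do not say what that number stands for. By the correlations over genes, same-numbered libraries were the closest for fusion protein against untreated, combined against fusion protein and combined against untreated. They were not all the closest for combined against 20 Gy (0.505, 0.0095 and 0.382) or for 20 Gy against untreated (0.496, 0.156 and 0.456). In the latter, 20 Gy library 2 had 0.351 with untreated library 1. Fusion protein against 20 Gy was not checked. Uba7, Herc6 and Usp18 share exon sequence with Gm20661, Gm45193 and Gm44148, which had at most 12.1, 17.6 and 16.7 normalized counts in any library.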

Additional observations from a re-analysis of the deposited data

How the results depend on the processing

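Members called for fusion protein against untreated numbered 4 with DESeq2, 2 with no filter, 5 with the replicate block and 3 without the libraries numbered 3, against 1 in the reported fit. For combined against 20 Gy they numbered 5 with the replicate block, which those numbers do not pair there, 4 with TMM scaling, DESeq2, a pseudocount of 10 or no filter, where Ube2l6 was called, and 2 with edgeR or the compared groups alone, where Isg15 was not (adjusted p 0.156 and 0.105), against 3 in the reported fit. Without 20 Gy libraries 1 and 2 and combined library 1, they numbered 0 for combined against 20 Gy, 1 for the average effect and 2 for combined against untreated. Leaving out 1 library at a time gave 1 to 3 for fusion protein against untreated, 1 to 3 for combined against 20 Gy, 4 to 5 for the average effect and 1 to 4 for combined against untreated. The genes whose level relative to Isg15 passed numbered 0 with the replicate block, where Uba7 and Ube2l6 had the smallest p the test can give, and 0 without the libraries numbered 3, where the smallest possible p is too large to pass, and 1 to 3 when 1 library was left out. All genes called numbered 464, 550, 1339 and 755 with DESeq2 and 602, 834, 1989 and 1413 with the block (fusion protein against untreated, combined against 20 Gy, average effect, combined against untreated), against 136, 188, 602 and 256 in the reported fit. Fits of the compared groups alone called 18 for fusion protein against untreated and 149 for combined against untreated. Without the libraries numbered 3, 168 were called for combined against untreated. Without the 3 libraries of many chemoreceptor reads, 50, 0, 87 and 80 were called in the same order.

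Signs turned only where no member had passed. For 20 Gy against untreated, Usp18 had -0.52 without the libraries numbered 3, and Uba7 had -0.057 without 20 Gy libraries 1 and 2 and combined library 1. For combined against fusion protein, Uba7 had -0.21 and -0.10 under those choices. The interaction was -0.69 for Isg15 and 0.014 for Uba7 with edgeR, and -0.70 and 0.0032 with DESeq2. Without the 3 libraries it was -1.95 for Isg15, -0.75 for Ube2l6 and -0.48 for Usp18. With 1 library left out, 20 Gy against untreated ran from -0.15 to 1.50 for Isg15, -0.060 to 0.58 for Uba7, -0.19 to 0.77 for Ube2l6 and -0.34 to 0.30 for Usp18, and combined against fusion protein from -0.17 to 0.44 for Uba7. The interaction ran from -0.65 to 1.00 for Isg15, -0.44 to 0.22 for Uba7, -0.092 to 0.86 for Ube2l6 and -0.025 to 0.73 for Herc6. The cause was not tested. With 3 libraries a group, intervals for Isg15 are wide, and a p that misses the threshold does not show that levels were alike.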
